A study of Mus musculus with 8 samples.

Results

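The integrin and laminin chains are the genes whose symbol in the array's annotation names an integrin alpha chain, an integrin beta chain, or a laminin alpha, beta or gamma chain. The rule found 35 of 22180 measured genes, namely 17 integrin alpha chains, 8 integrin beta chains and 10 laminin chains. Each gene was read from 1 probe set, a group of array probes summarised as a single log2 value, and where a gene had several the one with the highest mean over all arrays was kept. The samples were AML12 cells, a line of mouse hepatocytes bought from a cell bank. One group was wild type, and in the other the VWA8 gene, which encodes a mitochondrial protein with an ATPase domain, had been deleted with CRISPR/Cas9. Each group consisted of 4 separate cultures, 1 array per culture. All cells were grown with serum, insulin, transferrin, selenium and dexamethasone, and were differentiated before RNA was taken. The number of clones behind the knockout cultures is not stated in these sources, and if they were a single clone, its own traits and the loss of VWA8 cannot be told apart.

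Integrins are receptors at the cell surface that each pair an alpha with a beta chain, and they tie the matrix outside the cell to actin or keratin filaments inside it. Laminins are secreted trimers of an alpha, a beta and a gamma chain that polymerise into basement membranes and are themselves bound by several integrins. Hepatocytes in the liver face the sinusoids without a continuous basement membrane and carry a narrow set of integrins, whereas bile duct cells rest on a laminin-rich one. In culture, hepatocytes attach to and spread on a matrix through integrins.

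The Vwa8 probe set served as a check of the labels. It read between 8.91 and 9.01 on the wild-type arrays and between 5.07 and 5.33 on the knockout arrays, a difference of -3.77 ± 0.0696 (SE) on the log2 scale. Array medians lay between 4.27 and 4.33, and arrays correlated with r between 0.985 and 0.989 within a genotype and between 0.978 and 0.984 across genotypes. Of 10 hepatocyte markers, 9 read above the median probe set (4.28). These 9 rose in the knockout by the test described below, as did 17.5% of all genes above that median. Of the markers of other liver cells, 5 of 7 leukocyte, 5 of 6 endothelial and 7 of 8 stellate cell or fibroblast genes read at or below that median. The leukocyte marker that passed the test was Cd14, a lipopolysaccharide receptor, at -0.45 ± 0.0586. Of 5 bile duct cell markers 4 read above the median probe set, among them Krt19 and Sox9. Krt7 stood at -0.52 ± 0.0835 and Cftr at -0.92 ± 0.108, and both passed. Krt19 at -0.185 ± 0.0785, Epcam at -0.042 ± 0.0918 and Sox9 at 0.107 ± 0.0525 did not pass. For Sox9 all knockout arrays lay above all wild-type arrays. On every array the median over the 5 bile duct markers was the value of Krt7 itself. It ran from 6.04 to 6.20 on the wild-type arrays and from 5.47 to 5.79 on the knockout arrays. The part of these markers in the changes of the chains was not tested.

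More integrin and laminin chains were lower than higher in the knockout. Of the 35 chains, 8 fell and 2 rose at an adjusted p below 0.05 in limma, a linear model with moderated variances, with Benjamini-Hochberg adjustment over the 22180 genes. Those that fell were Itga7, Itgb3, Lamb3, Itga3, Itgb6, Lamb2, Itgb1 and Itga5, and those that rose were Lamc1 and Itgb5. The largest difference among them was that of Itga7, 2.24-fold lower. Over all genes 20.9% passed, 10.4% higher and 10.4% lower, against 28.6% of the chains. The median log2 fold change was -0.05 over the 35 chains and -0.0027 over all genes.

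The chains split by brightness. For 17 of them the mean over all arrays lay above the median probe set, and all 10 chains that passed were among these 17. Of all genes above that median 35.0% passed, and 17.4% passed as lower, so the 8 falls and 2 rises among 17 are read against those shares. The median log2 fold change was -0.22 over the 17 chains and -0.01 over all genes above that line. None of the 18 dimmer chains passed in limma, where 3.95% of all genes at or below the line did; 3 of the 18 had an unadjusted p below 0.05. The 4 arrays of one genotype lay wholly below or above the 4 of the other for 13 chains, 11 lower and 2 higher in the knockout. Over all genes the share was 26.1%, with 13.2% lower and 12.9% higher. Among the 17 brighter chains the groups were so separated for 10 lower and 2 higher. Among all 12086 genes above the line they were for 2657 lower and 2626 higher. With no background reading to hand, dim chains may or may not have been expressed.

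**Figure D1:**
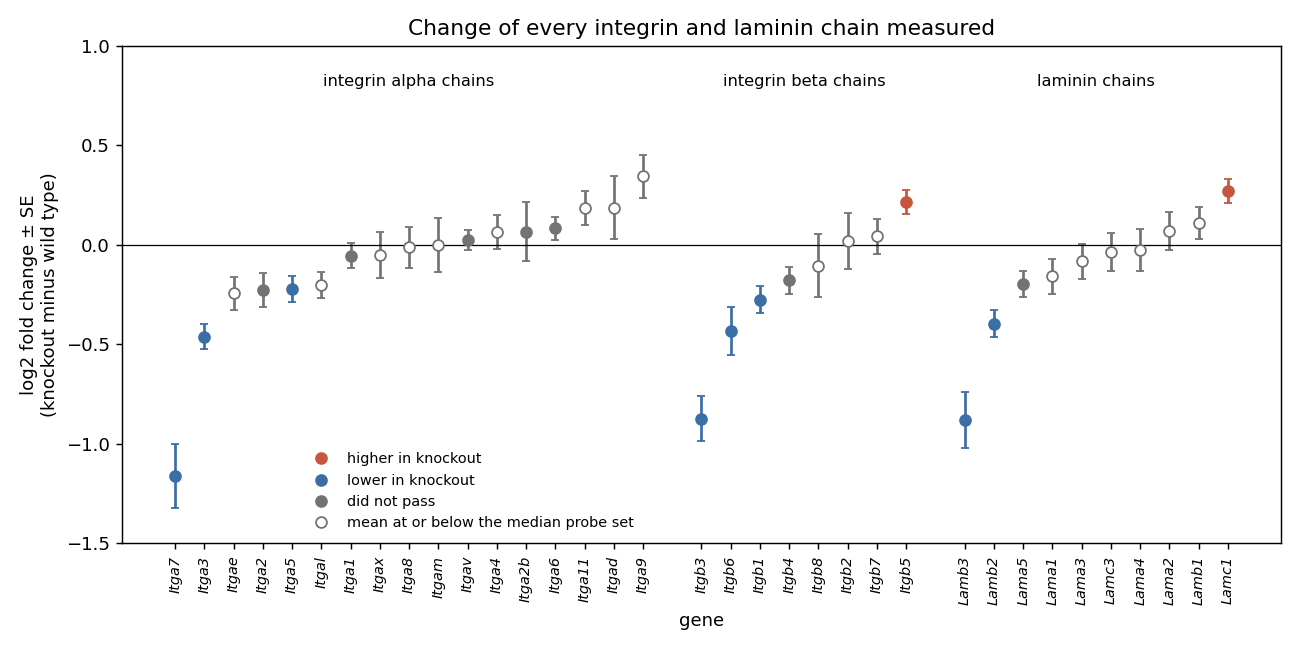
Log2 fold change of each of the 35 chains (knockout minus wild type, points with SE bars, 4 arrays per group), ordered within the integrin alpha, integrin beta and laminin chains. Filled points are chains whose mean is above the median probe set, open points those at or below it, and colour gives the limma call. The 10 chains that passed are all filled, from Itga7 at -1.16 to Lamc1 at 0.27.

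Among the alpha chains that bind laminin, Itga7 and Itga3 fell and Itga6 did not pass. Itga7, best known as the laminin receptor of muscle (chromosome 10 in assembly GRCm38.p6), read 6.42, 6.13, 6.18 and 6.10 on the wild-type arrays and 4.92, 5.46, 4.65 and 5.15 on the knockout arrays. Every knockout value lay below every wild-type value, although the knockout arrays differed among themselves by up to 0.81 log2 units. The difference was -1.16 ± 0.161 (SE, adjusted p = 0.000948 in limma). Itga3, which pairs with the beta chain of Itgb1 in epithelial cells (chromosome 11), read 9.38, 9.34, 9.19 and 9.32 in wild-type cells and 8.85, 8.92, 8.78 and 8.83 in knockout cells. The groups did not overlap, and the difference was -0.46 ± 0.0633 (adjusted p = 0.00087 in limma). Itga6, which can pair with the beta chains of Itgb1 or Itgb4 (chromosome 2), read 7.24, 7.39, 7.34 and 7.36 in wild-type cells and 7.44, 7.36, 7.41 and 7.44 in knockout cells. Its groups overlapped, and the difference of 0.08 ± 0.0569 had a 95% confidence interval of -0.05 to 0.21 (adjusted p = 0.393 in limma).

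None of the 3 measured collagen-binding alpha chains passed in limma, and 1, Itga2, had an unadjusted p below 0.05. Itga1, a chain that normal hepatocytes carry, read from 9.05 to 9.26 in wild-type cells and from 9.07 to 9.12 in knockout cells, with a 95% interval of the difference from -0.19 to 0.08. Itga2 stood at -0.23 ± 0.0856 with an interval of -0.42 to -0.03, and its adjusted p of 0.102 missed the threshold. Itga11, a chain of fibroblasts, lay below the median probe set in both groups and stood at 0.18 ± 0.0835.

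Of the 4 measured alpha chains that recognise the RGD sequence of fibronectin and vitronectin, 1 passed (25%), a share near the 20.9% of all genes. Itga5, whose product is the main fibronectin receptor chain (chromosome 15), read 8.29, 8.22, 8.24 and 8.34 in wild-type cells and 8.15, 8.09, 8.04 and 7.93 in knockout cells. The groups did not overlap, but the difference of -0.22 ± 0.0651 lay close to the threshold (adjusted p = 0.0417 in limma; 0.00558 to 0.106 over 17 alternatives). When 1 array was left out, the call held only without knockout replicate 1, at -0.25, and was lost without each of the other 7 arrays, at -0.24 to -0.18. Itgav, the alpha chain shared by several vitronectin and TGF-beta binding integrins (chromosome 2), read 9.91, 9.94, 9.95 and 9.97 in wild-type cells and 9.94, 10.00, 9.93 and 9.99 in knockout cells. Its groups overlapped, with a difference of 0.02 ± 0.0507 and a 95% interval of -0.09 to 0.14. A further, dim probe set of Itgav stood at -0.13 ± 0.156. Itga8 and the platelet chain Itga2b had means between 3.40 and 4.40 and did not pass.

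The integrin beta chains changed unequally. Of 8 chains 3 fell, 1 rose and 4 did not pass. The share that passed was 50%, against 20.9% of all genes and 35.0% of those above the median probe set. Itgb3, whose product pairs with that of Itgav to bind vitronectin and other RGD proteins (chromosome 11), read 7.30, 7.30, 7.33 and 7.38 in wild-type cells and 6.56, 6.55, 6.62 and 6.09 in knockout cells. Knockout replicate 4 was the lowest, and the highest knockout value still lay 0.68 below the lowest wild-type value. The difference was -0.87 ± 0.112 (1.83-fold lower, adjusted p = 0.000608 in limma). Without knockout replicate 4 it was -0.75 and still passed.

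Itgb6, an epithelial chain that with the product of Itgav activates latent TGF-beta (chromosome 2), was dim. It read 4.65, 4.63, 4.95 and 4.50 in wild-type cells and 4.21, 4.48, 4.02 and 4.29 in knockout cells. The groups were separated by a narrow gap, and the difference was -0.43 ± 0.12 (adjusted p = 0.033 in limma; 0.0117 to 0.0959 over 17 alternatives). Its call held without knockout replicate 2, at -0.51, and without wild-type replicate 4, at -0.49, and was lost without each of the other 6 arrays, at -0.45 to -0.34.

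Itgb1, the beta chain shared by most matrix-binding alpha chains and so the hub of the family (chromosome 8), read 9.83, 10.00, 10.07 and 10.00 in wild-type cells and 9.69, 9.64, 9.75 and 9.72 in knockout cells. All knockout arrays lay below all wild-type arrays, by a mean of -0.28 ± 0.0666 (adjusted p = 0.0175 in limma). The call was lost without knockout replicate 2, at -0.26, and once the median change of its chromosomal neighbours was subtracted, at -0.20. Itgb5, another partner of Itgav that binds vitronectin (chromosome 16), was the only beta chain to rise. It read 7.33, 7.33, 7.25 and 7.25 in wild-type cells and 7.52, 7.56, 7.39 and 7.55 in knockout cells, groups that did not overlap. Its difference of 0.22 ± 0.061 lay near the threshold (adjusted p = 0.0352 in limma; 0.00871 to 0.0952 over 17 alternatives), and among the fits without 1 array it passed only without knockout replicate 3, at 0.25 (0.20 to 0.23 without the others). Itgb4, the partner of Itga6 in hemidesmosomes, ran from 6.10 to 6.32 in wild-type cells and from 5.92 to 6.08 in knockout cells. These groups did not overlap, and the difference of -0.18 ± 0.0689 missed the threshold (adjusted p = 0.108 in limma; 95% interval -0.34 to -0.02).

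**Figure D2:**
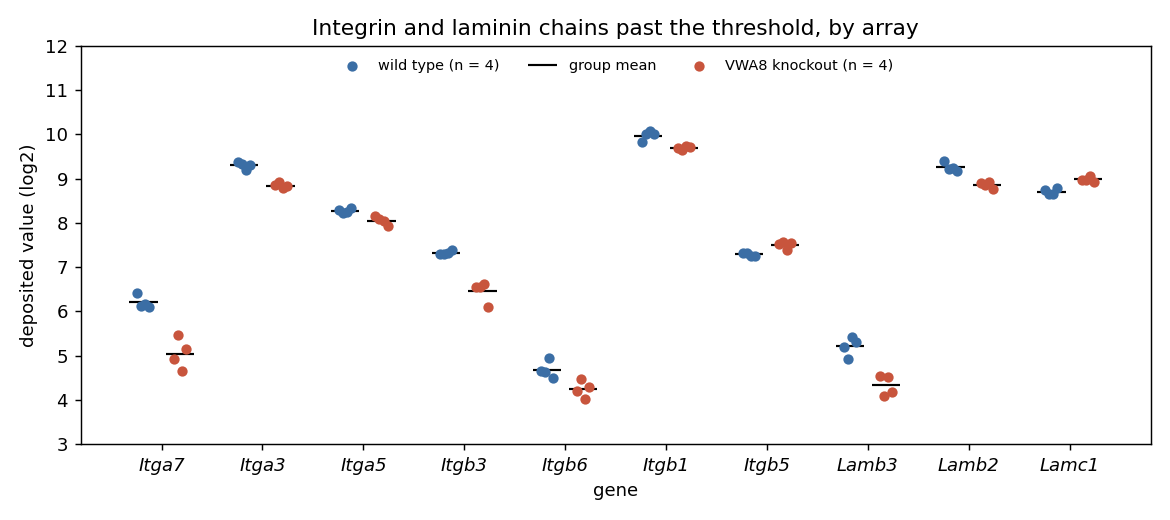
Deposited log2 values of the 10 chains that passed the limma test, 1 point per array, with a bar at each group mean (wild type left, VWA8 knockout right, 4 arrays each). For every one of the 10 genes the groups do not overlap; the widest spread is among the knockout arrays of Itga7, from 4.65 to 5.46, and levels of different genes are not comparable.

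The integrins of white blood cells were dim in both groups. Itgal, Itgam, Itgax, Itgad, Itgae, Itgb2 and Itgb7, whose products act in adhesion and migration of leukocytes, had group means between 2.89 and 4.08, below the median probe set, as had 5 of the 7 leukocyte markers. None of the 7 passed in limma, and 2 had an unadjusted p below 0.05. Itgal came closest at -0.20 ± 0.0665, with an adjusted p of 0.0656 and groups that did not overlap, and Itgae stood at -0.25 ± 0.0815. Itgal passed without wild-type replicate 3, at -0.24. With the median change of its chromosomal neighbours subtracted, Itgal stood at -0.094 (adjusted p = 0.399 in limma). Itga4 and Itga9, which form a small subgroup of their own, were dim as well. Itga9 read 3.48, 3.50, 3.60 and 3.75 in wild-type cells and 4.04, 3.74, 3.78 and 4.16 in knockout cells. Its groups overlapped narrowly, and the difference of 0.34 ± 0.109 missed the threshold (adjusted p = 0.0559 in limma). Itga9 passed under 6 of 16 alternatives, among them without knockout replicate 2, at 0.41, and without wild-type replicate 4, at 0.40. The others were quantile normalization, median centring, dropping the dimmest 25% of probe sets and the replicate block.

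Of the 10 laminin chains 2 fell and 1 rose (30%), against 20.9% of all genes that passed and 35.0% of those above the median probe set. Lamb3, the beta chain of the epithelial laminin that anchors hemidesmosomes (chromosome 1), read 5.20, 4.92, 5.43 and 5.30 in wild-type cells and 4.54, 4.10, 4.53 and 4.17 in knockout cells. The groups did not overlap, and the difference was -0.88 ± 0.139 (1.84-fold lower, adjusted p = 0.00193 in limma). Lama3, which encodes the alpha chain of the same trimer, ran from 3.64 to 3.86 in wild-type cells and from 3.46 to 3.76 in knockout cells. It was below the median probe set and did not pass (-0.08 ± 0.0864).

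Lamb2, a beta chain of many basement membranes (chromosome 9), read 9.40, 9.21, 9.24 and 9.18 in wild-type cells and 8.91, 8.86, 8.92 and 8.76 in knockout cells. Its knockout values all lay below the wild-type ones, by a mean of -0.40 ± 0.0691 (adjusted p = 0.00336 in limma). Lamc1, the gamma chain of most laminin trimers (chromosome 1), moved the other way. It read 8.74, 8.66, 8.66 and 8.78 in wild-type cells and 8.97, 8.96, 9.07 and 8.93 in knockout cells, a rise of 0.27 ± 0.0596 with no overlap (adjusted p = 0.0111 in limma). Lama5, the widespread alpha chain of epithelial and endothelial basement membranes (chromosome 2), read 8.36, 8.21, 8.20 and 8.22 in wild-type cells and 8.03, 8.05, 8.16 and 7.95 in knockout cells. Its groups did not overlap either, and its difference of -0.20 ± 0.0667 missed the threshold (adjusted p = 0.0699 in limma). The 30 measured genes on each side of Lama5 had a median change of 0.12, and subtracting it brought Lama5 to -0.32, past the threshold. Lama1, Lama2, Lama4, Lamb1 and Lamc3 were at or below the median probe set and did not pass, with differences from -0.16 to 0.11.

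Promoter sequences from RefSeq (assembly GRCm38.p6) were at hand for 22 of the chains, 7 of them past the threshold, and the 250 bases before each listed start were searched on both strands for short motifs. The motifs were the AP-1 letters TGANTCA, the TEAD letters GGAATG, which bind the partners of YAP, and the Sp1 letters GGGCGG. Among the 25 windows of the chains, 1 held the AP-1 letters, 2 the TEAD letters and 9 the Sp1 letters. Over all 32851 windows the shares were 6.75%, 12.6% and 32.7%. Shown are the windows with the TEAD letters, which belong to Lamb3 and Itgb1, and that of Itgb5, the beta chain that rose. Capitals mark the motifs, and no motif overlapped another. The Lamb3 window is chr1:193301993-193302242 on the plus strand, before the more downstream of 2 listed starts, with the TEAD letters on the reverse strand beginning 167 bases before the start. The Itgb1 window is chr8:128685404-128685653 on the plus strand, with the Sp1 letters 151 and the TEAD letters 7 bases before the start. The Itgb5 window is chr16:33829415-33829664 on the plus strand, with the Sp1 letters on one or the other strand at 199, 63 and 34 bases before the start.
Lamb3: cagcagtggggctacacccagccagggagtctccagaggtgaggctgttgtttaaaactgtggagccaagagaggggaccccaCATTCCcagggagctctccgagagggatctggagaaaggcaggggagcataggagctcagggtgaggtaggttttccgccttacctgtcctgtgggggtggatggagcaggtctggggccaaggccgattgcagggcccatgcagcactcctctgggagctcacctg
Itgb1: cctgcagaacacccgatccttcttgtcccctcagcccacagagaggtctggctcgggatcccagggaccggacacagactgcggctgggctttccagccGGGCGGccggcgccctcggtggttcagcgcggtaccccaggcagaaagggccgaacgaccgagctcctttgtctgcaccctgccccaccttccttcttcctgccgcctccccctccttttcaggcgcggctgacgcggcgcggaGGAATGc
Itgb5: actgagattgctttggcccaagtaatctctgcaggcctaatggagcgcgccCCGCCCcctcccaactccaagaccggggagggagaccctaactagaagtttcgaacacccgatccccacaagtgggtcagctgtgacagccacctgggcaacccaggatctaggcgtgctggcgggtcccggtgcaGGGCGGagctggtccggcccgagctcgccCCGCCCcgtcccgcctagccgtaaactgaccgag
These matches describe the letters alone and say nothing of binding.

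Chains that assemble with each other were then compared within each array. For 16 pairs known to form integrins or to sit in one laminin trimer, the log2 value of one chain was subtracted from that of the other, which removes any shift common to the array. In 11 of the 16 pairs the wild-type and knockout differences did not overlap, against 25% of all pairs of measured genes. Both chains lay above the median probe set in 12 of the pairs, and 9 of these 12 did not overlap, against 45.1% of all gene pairs of that kind. In 9 of the 11 pairs the groups did not overlap for 1 of the chains alone, and in 2 pairs, those of Lamc1 with Lama5 and with Lamb2, for each chain alone. The pairs share chains, so they are not independent of each other. For each of the 11 the exact two-sided permutation test gave p = 0.0286, the smallest value that 4 against 4 arrays allow. The adjusted p of 0.0416 over the 16 pairs follows from that smallest value and the number of pairs that reached it.

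Itgav was compared with 5 beta chains, while Itga7 was in none of the pairs. Relative to Itgb3, Itgav was higher in the knockout by 0.90 on the log2 scale, with SDs of 0.023 in wild-type and 0.262 in knockout cells. Relative to Itgb6 it was higher by 0.46 and relative to Itgb1 by 0.30, while relative to Itgb5 it was lower, at -0.19. Against Itgb8, a dim chain, the groups overlapped. Among the partners of Itgb1, Itga6 gained 0.36 and Itga1 gained 0.22 relative to it, whereas the groups overlapped for Itga2, Itga3 and Itga5. Relative to Itgb4, Itga6 gained 0.26. In the laminins, Lamb2 fell by 0.67 and Lama5 fell by 0.47 relative to Lamc1. Lama3 gained 0.80 relative to Lamb3, and Lama5 stood at -0.31 relative to Lamb1. Lama3 and Lamb1 lay below the median probe set (4.28), as did the knockout mean of Itgb6, at 4.25.

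**Figure D3:**
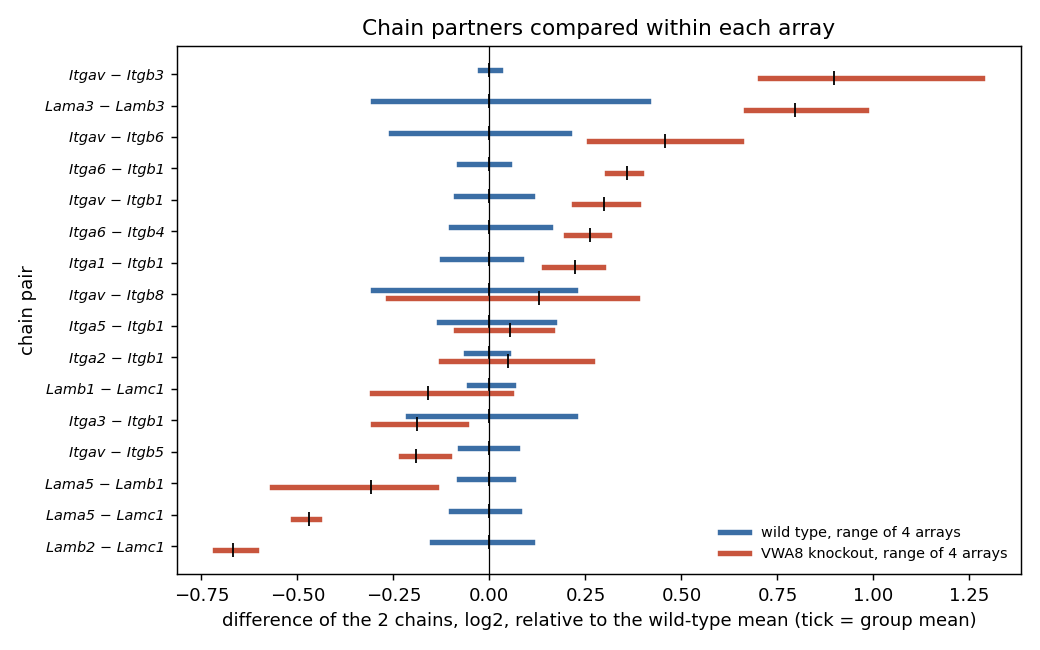
Within-array log2 difference of the 2 chains of each of 16 pairs, set to 0 at the wild-type mean; bars span the 4 arrays of a group and ticks are group means. The knockout bars of 11 pairs lie clear of the wild-type bars, as they do for 25% of all gene pairs, from Lamb2 minus Lamc1 at -0.67 to Itgav minus Itgb3 at 0.90.

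Genes that act with these chains were counted in the same fit. Most of them were bright, so the shares that passed are read against the 35.0% of genes above the median probe set that did. In the plaque that couples integrins to actin, 15 of 28 measured genes fell and 2 rose (60.7%), with a median of -0.24. Flna, the actin cross-linker filamin A, stood at -1.10 ± 0.0532 and Zyx (zyxin), which responds to tension, at -1.04 ± 0.0641. Vcl (vinculin) stood at -0.87 ± 0.0612 and Actn1, an alpha-actinin, at -0.70 ± 0.0586. Tln1, the talin that activates integrins, fell less, by 0.23 ± 0.0519, and the kindlin gene Fermt2 did not pass at -0.17 ± 0.0643. The 2 that rose were Tns1, a tensin, at 0.27 ± 0.0557 and Rsu1 at 0.26 ± 0.0708, and neither passed once the median change of its chromosomal neighbours was subtracted (0.08 and 0.16). Rsu1 also lost the call in 5 of the 8 fits without 1 array, those without wild-type replicate 1, 2 or 3 or knockout replicate 3 or 4 (0.23 to 0.27).

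Among regulators and membrane partners of integrins 7 of 20 fell and 2 rose (45.0%), with a median of -0.12. Plaur, the urokinase receptor, stood at -1.06 ± 0.0772. All 4 tetraspanins of the list, membrane proteins that hold integrins in clusters, fell, with Cd63 at -0.63 ± 0.0562, Cd9 at -0.51 ± 0.0703, Cd151 at -0.44 ± 0.0522 and Cd81 at -0.31 ± 0.0566. Kank1, a scaffold at the rim of adhesions, rose by 0.91 ± 0.0634, and Itgb1bp1, whose product binds the tail of the Itgb1 chain and restrains its activation, rose by 0.21 ± 0.0544. The call of Itgb1bp1 held under 11 of 17 alternatives and was lost with the replicate number as a block and without wild-type replicate 3 or 4 or knockout replicate 2, 3 or 4 (adjusted p up to 0.078 in limma). Of 4 hemidesmosome partners Cd151 and Plec (plectin, -0.23 ± 0.0522) fell, Dst (dystonin) rose by 0.30 ± 0.0599 and Col17a1 did not pass. With the neighbours' median change subtracted, the value for Dst was 0.19, short of the threshold (adjusted p = 0.0597 in limma).

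The basement membrane partners of laminin fell in 11 of 24 cases, and 1 rose (50%), with a median of -0.17. Leaving out 1 array gave only 9 to 10 falls. Agrn lost the call under 8 of 17 alternatives, the dim Col4a6 under 6 of 16 and Ntn1 under 4 of 17. Nid1, the nidogen that links laminin to collagen IV, had the largest fall of this list, by 2.05 ± 0.111, from 7.18 to 5.14. Fras1, a matrix protein of epithelial basement membranes, stood at -1.32 ± 0.079, the proteoglycan perlecan (Hspg2) at -0.91 ± 0.0655 and the collagen IV chain Col4a1 at -0.70 ± 0.0522. Smoc1, a calcium-binding matricellular protein, rose by 1.23 ± 0.1. Of 12 genes for laminin receptors other than integrins, or for proteins in their complexes, 11 lay above the median probe set. Of the 12, 2 rose and 2 fell, a share (33.3%) near the 35.0% of all bright genes. The syndecans Sdc2 and Sdc4 rose by 0.97 ± 0.0567 and 0.37 ± 0.0527, while Sdc3 stood at -0.68 ± 0.13. Utrn (utrophin), whose product lies inside the cell and is not itself a receptor, stood at -0.29 ± 0.057. Dag1, the dystroglycan gene, stood at 0.13 ± 0.0595 and did not pass.

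The ligands of integrins other than laminin went both ways, 7 of 34 higher and 9 lower (47.1%), with a median of -0.01. Postn (periostin) rose by 2.67 ± 0.0716, the fibrinogen chain Fgg by 1.86 ± 0.0842, Vtn (vitronectin) by 1.79 ± 0.0623 and Fgb, another fibrinogen chain, by 1.29 ± 0.0591. Fn1 (fibronectin) rose by 0.31 ± 0.0641, but its chromosomal neighbours had a median change of 0.19, and with that subtracted its value was 0.12, short of the threshold (adjusted p = 0.258 in limma). Among the falls, Ccn1 stood at -1.51 ± 0.08, Tnc (tenascin C) at -1.33 ± 0.132, Tgfb3 at -1.19 ± 0.0621 and Tgfb1 at -0.65 ± 0.064. Vtn rose while Itgb3 fell and Itgb5 rose, and Tgfb1 and Tgfb3, whose latent forms bind the Itgav and Itgb6 pair, fell with Itgb6.

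**Figure D4:**
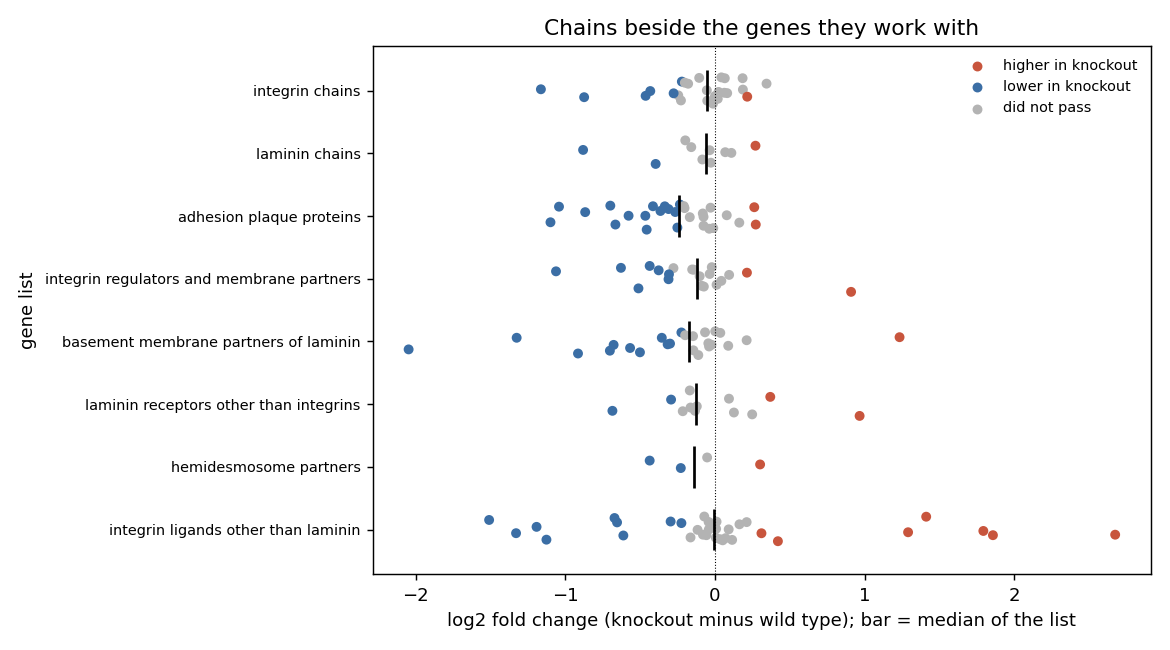
Log2 fold change (knockout minus wild type) of each measured gene in the integrin chains, the laminin chains and 6 lists of genes that work with them, 1 point per gene, coloured by its limma call, with a bar at each list's median. Basement membrane partners reach down to Nid1 at -2.05, and integrin ligands span from Ccn1 at -1.51 to Postn at 2.67.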

How the data were processed

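The values are those the authors deposited, 1 log2 value per probe set on an Affymetrix mouse array, running from 0.44 to 13.55. That they are log2 values was judged from their range. How the authors corrected, normalized and summarised the probes is not stated in these sources. Of 41345 probe sets, 23521 had 1 gene symbol in the platform annotation, 1814 had several and 16010 had none listed. Genes with a single-symbol probe set were represented by the one with the highest mean, which gave 22180 genes.

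Genotypes were compared over all 22180 genes by lmFit and eBayes (limma 3.58.1, R 4.3.3) with genotype alone in the model, two-sided p-values and a Benjamini-Hochberg threshold of 0.05. The number of arrays limits the precision. The p-values measure the spread between 4 cultures per group, and nothing more is known of the cultures' independence. Single values were tested with exact permutation over the 70 arrangements of the arrays. The fit was tested on simulated data. Named are Vwa8, every chain past the threshold, further chains fixed by name of which 1 is not reported here, up to 4 members of each list with the smallest p, Smoc1 as the single exception to its list's direction, and chosen after seeing the values Tns1, Rsu1, Itgb1bp1, Col17a1, Itga2, Itga9, Itga11, Itgae, Itgal, Tln1, Fermt2, Dag1, Cd9, Cd81, Fn1, Ccn1, Tnc, Tgfb1, Tgfb3 and the marker genes. Arhgef7, Agrn, Col4a6, Ntn1 and Adam9 are named for lost calls, and were also chosen after seeing the values. The members and lists were chosen with earlier results of these data known. Of 22180 genes, 21994 matched the gene table of assembly GRCm38.p6, which gave chromosomes and neighbours. Alternatives were median centring, quantile normalization, array weights, a robust fit with an intensity trend, averaging a gene's probe sets, dropping the dimmest 25% or 50% of all probe sets, subtraction of the median change of up to 30 neighbouring genes in each direction along the chromosome, the replicate number as a block, and leaving out each array. Figures were drawn with matplotlib 3.10.9.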

Additional observations from a re-analysis of the deposited data

Results flagged for a closer look

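In 4 of the 70 groups of 4 arrays, 2 for each chain, 1 array stood apart from the other 3 by Dixon's criterion, and chance alone gives about 1 in 20. Knockout replicate 4 was lowest for Itgb3, at 6.09 with the nearest array at 6.55. Wild-type replicate 1 was highest for Lama5, at 8.36 with the nearest at 8.22. Knockout replicate 2 was highest for Itga11, at 3.96, and wild-type replicate 3 was lowest for Itgax, at 3.11, both dim chains. The 4 values came from 4 different arrays.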

How the results depend on the processing

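Of 170 recomputed values of the 10 chains that passed, 140 kept direction and call, 30 lost the call and none changed sign. Itga3, Itga7, Itgb3, Lamb2 and Lamb3 passed under all 17 alternatives; Lamc1 passed under 16, Itgb1 under 15, Itgb5 and Itgb6 under 9 each and Itga5 under 6. Of 406 values of the other 25 chains, 15 gained the call and 25 changed sign, none of them past the threshold. Leaving out 1 array gave 1 to 2 chains higher and 6 to 7 lower. It gave 1 to 2 adhesion plaque genes and 1 to 2 integrin regulators higher, and 9 to 10 basement membrane partners lower. Whether the replicate number of the labels paired the arrays was not tested. Deviations of same-numbered arrays correlated weakly, at 0.0589, -0.0015, 0.0217 and 0.0259. Even so, 5 of 8 arrays correlated best with their own number among the 4 numbers of the other genotype. With the replicate block 1 chain rose, 1 integrin regulator rose and 1 hemidesmosome partner fell. Lamc1 (0.27, adjusted p = 0.0531 in limma), Itga5, Itgb5 and Itgb6 lost the call with this block, and Itga9 gained it. Of the lists, Tln1, Arhgef7, Itgb1bp1, Agrn, Col4a6, Plec and Adam9 lost theirs. With the neighbours' median change subtracted, 0 adhesion plaque genes and 0 hemidesmosome partners were higher in limma (0 and 1 at an unadjusted p below 0.05). Itgav turned to -0.013 with that subtraction and to -0.051 when its probe sets were averaged, and Lama4 turned to 0.075 with the subtraction. Itga8 turned to 0.008 with median centring and 0.013 with array weights, and Itgam to -0.010 with array weights. Leaving out 1 array moved Itga2b between -0.057 and 0.162, Itga8 between -0.061 and 0.078, Itgam between -0.084 and 0.110, Itgax between -0.163 and 0.001, Itgb2 between -0.068 and 0.122, Itgb7 between -0.021 and 0.089, Itgb8 between -0.225 and 0.006, Lama4 between -0.097 and 0.070 and Lamc3 between -0.087 and 0.028. The cause was not tested. With no background reading used, a signal above background was not shown for the 18 of 35 chains at or below the median probe set.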
